A study of Bos taurus with 8 samples.

Results

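The genes described here encode the mitochondrial ribosomal proteins, the protein part of the ribosome that works inside the mitochondrion. They were selected by name, as transcript clusters with a single gene symbol that begins with MRPL or MRPS and a number. Of the 19901 symbols on the array, 76 met this rule, 47 of them MRPL and 29 MRPS genes, and for each symbol the cluster with the highest mean signal over all arrays was used. A mitochondrial location is annotated in the table for 73 of the 76.

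Granulosa cells, the somatic cells that line the follicle and make estradiol and later progesterone, were collected from the dominant follicle of 8 German Holstein cows in established lactation. The heat stress (HS) group of 4 cows was kept at 28°C and 52% relative humidity, a temperature-humidity index (THI) of 76. The pair-fed (PF) group of 4 cows was kept at 15°C and 64% relative humidity (THI 60) and received feed matched to the intake of the heat-stressed cows. Both groups spent 96 h in a climate chamber according to the labels. All cows received 500 µg PGF2α at 72 h before slaughter to induce luteolysis and 100 µg of a GnRH analog 49 h later, so that the cells came from follicles after the induced LH surge and before ovulation. The mural granulosa layer was scraped from the follicle wall, and the RNA of each cow was hybridized to its own Bovine Gene 1.0 ST array.

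Mitochondrial ribosomes translate only the few proteins encoded by mitochondrial DNA, all of them subunits of the respiratory chain and of ATP synthase. The ribosomal RNAs come from the mitochondrial genome, whereas every protein of the particle is encoded in the nucleus, made in the cytosol and imported. About as many proteins have relatives in bacteria as arose later in the lineage of mitochondria. In granulosa cells, mitochondria carry out the first step of steroid synthesis, the cleavage of the cholesterol side chain.

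The array medians lay between 5.27 and 5.37 on the log2 scale in HS and between 5.33 and 5.44 in PF. All 15 granulosa markers had a mean log2 signal of at least 5, and none of the 6 oocyte markers did. Markers of leukocytes, fibroblasts and smooth muscle, and endothelium were present as well. All 32 of these genes had a lower mean in HS than in PF, while 46% of all clusters had a higher mean in HS. The median log2 fold change (HS minus PF) was -0.80, -0.88 and -0.78 for these lists in turn. PF replicate 3 stood apart from the other PF arrays for many of the genes described here, and values without it are given beside many of the results it moves.

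The question was whether the genes of the mitochondrial ribosome differ between heat-stressed and pair-fed cows. In brief, 1 of the 76 genes, MRPS6, passed the thresholds used here (a change of more than 1.5-fold in either direction and p below 0.05 before adjustment, by limma), and it was higher in HS. No gene was lower in HS by these thresholds. Over all 26773 transcript clusters, 2.21% passed them, 1.58% with a higher and 0.627% with a lower value in HS, and 2.99% of the 12651 clusters with a single symbol and a mean log2 signal of at least 5. The share of ribosomal genes at an unadjusted p under 0.05 was 1.32%, against 7.2% of all clusters and 9.04% of the 12651. In none of the 76 genes were the groups free of overlap, which was the case for 4.64% of all clusters and 5.59% of the 12651. No gene passed an adjusted p of 0.05, neither among the 76 nor among all clusters, and the smallest adjusted p in limma was 0.68 for the 76. As these are bulk samples, fewer cells of a type and less RNA per cell cannot be told apart.

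The differences were small throughout. The median log2 fold change (HS minus PF) of the 76 genes was 0.07, against -0.02 over all clusters, and 62 of the 76 lay within 0.25 of zero. The mean signal of the 76 genes was 7.10 ± 0.10 in HS and 7.01 ± 0.27 in PF (SD, n = 4 each). The mean was higher in HS for 53 genes and lower for 23 with all arrays, but for 26 and 50 when PF replicate 3 was left out. Over all clusters 46% had a higher mean in HS, and 53.6% of the 12651. Other scalings moved this count too, to 63 of 76 higher after each array's median was subtracted and to 73 after the arrays were centred on the cytosolic ribosomal protein genes.

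**Figure D1:**
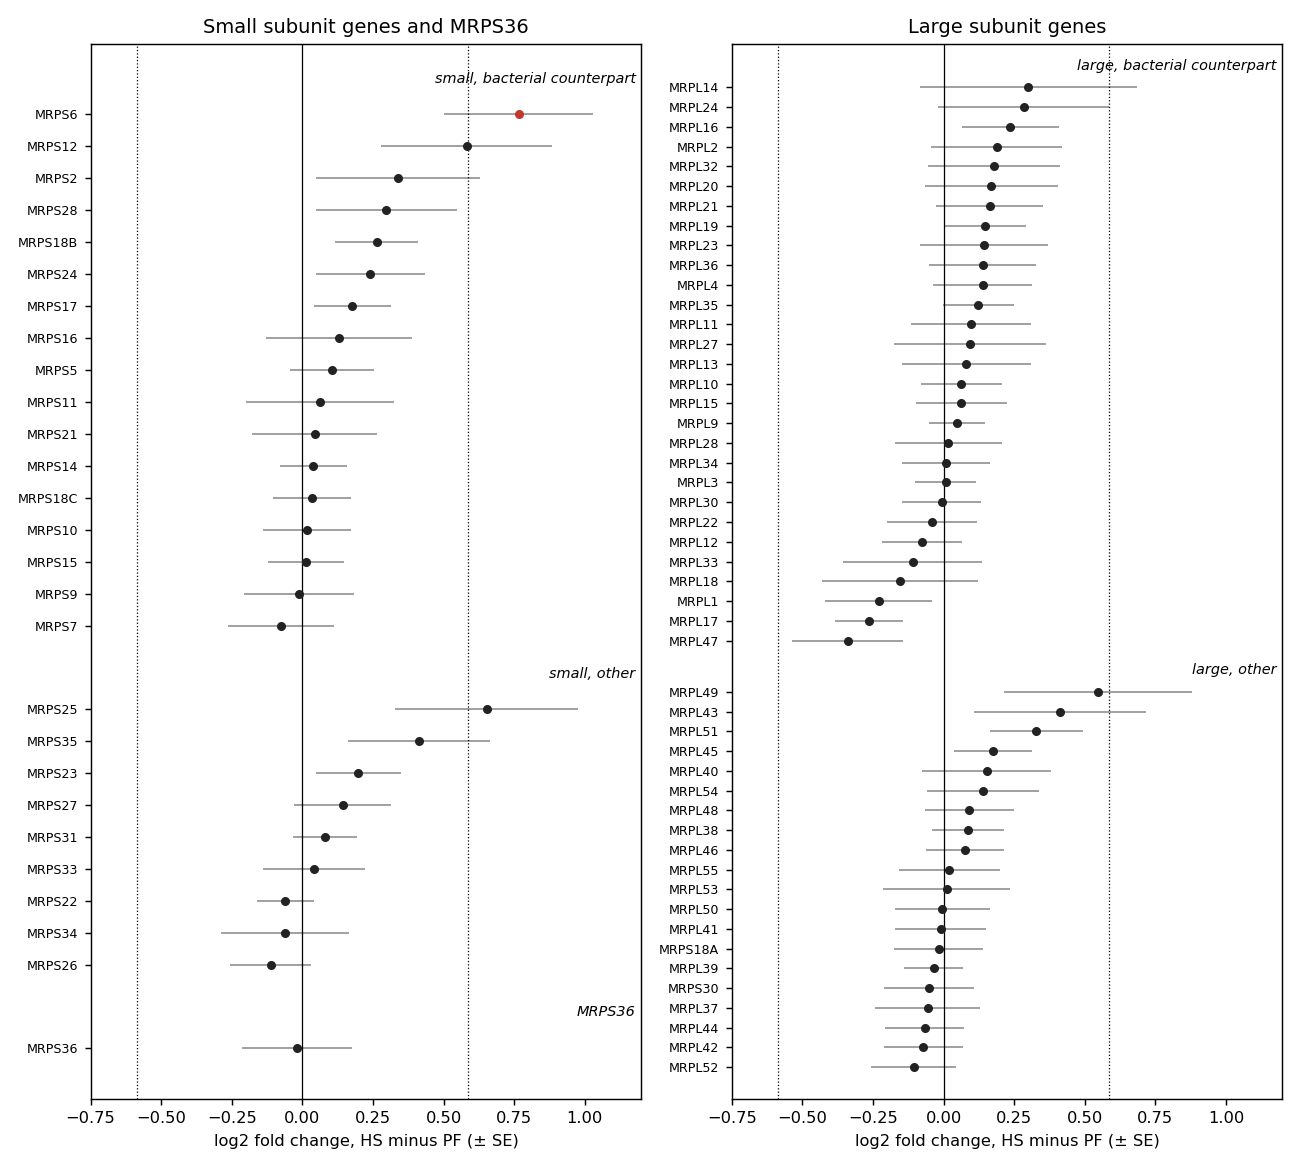
Log2 fold change (HS minus PF, x axis) of each of the 76 genes with its standard error, small subunit genes on the left and large subunit genes on the right, each split into proteins with a bacterial counterpart and others. Dotted lines mark the 1.5-fold threshold, MRPS6 (0.77) is the red point that passed both thresholds, and 62 of the 76 points lie within 0.25 of zero.

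Of the 17 small subunit genes with a bacterial counterpart, 15 had a higher and 2 a lower mean in HS. Their median log2 fold change was 0.11. MRPS6, the relative of bacterial protein S6, led this group. Its log2 signal was 9.83, 9.81, 9.32 and 9.73 in the HS cows, against 8.34, 9.44, 8.55 and 9.30 in the PF cows. HS replicate 3 lay below PF replicate 2, so that the groups overlapped, and PF replicates 1 and 3 were the 2 lowest. The log2 fold change was 0.77 ± 0.26 (SE), a 1.70-fold higher level in HS, with an unadjusted p of 0.019 and an adjusted p of 0.68 in limma. The exact two-sided permutation test gave p = 0.057, where 0.029 is the smallest p that 4 against 4 allow. The call was lost without PF replicate 1, with a log2 fold change of 0.58, and without PF replicates 1 and 3 the log2 fold change was 0.30.

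In the current bovine gene table (ARS-UCD2.0) MRPS6 overlaps SLC5A3, the gene of the sodium-coupled myo-inositol transporter that cells use against osmotic stress. SLC5A3 has a transcript cluster of its own on the array and is named here for this overlap. Its log2 signal was 10.21, 10.33, 10.11 and 10.38 in HS cows, against 8.46, 9.24, 10.57 and 9.36 in PF cows. PF replicates 1, 2 and 4 lay below every HS array, while PF replicate 3 was the highest of all arrays. HS minus PF came to a log2 fold change of 0.85 ± 0.38 (SE) with an unadjusted p of 0.055 and an adjusted p of 0.68 in limma, so that SLC5A3 did not pass. Without PF replicate 3 it passed both thresholds, at a log2 fold change of 1.24 (unadjusted p = 0.00045, adjusted p = 0.18 in limma), and it did so in 5 of 20 alternatives. PF replicate 1 was thus the lowest array for both genes of this locus, whereas PF replicate 3 was low for MRPS6 and high for SLC5A3. Whether probes of either cluster detect transcripts of the other gene was not tested.

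MRPS12 carries the counterpart of bacterial S12, a protein of the decoding centre, and lies at chr18:48905798-48907691 on the plus strand in UMD3.1. Its log2 signal was 8.44, 8.30, 7.98 and 8.31 in HS cows and 7.95, 7.94, 6.69 and 8.13 in PF cows. The lowest HS array lay above all PF arrays but PF replicate 4, and PF replicate 3 stood more than 1 log2 unit below the rest. MRPS12 had a log2 fold change of 0.58 ± 0.30 (SE, unadjusted p = 0.089 in limma) and 0.25 without PF replicate 3.

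The 9 small subunit proteins without a bacterial counterpart had a median log2 fold change of 0.08, with 6 genes of a higher and 3 of a lower mean in HS. MRPS25 (chr22:57865203-57909687, plus strand, UMD3.1) had log2 signals of 7.72, 7.55, 7.22 and 7.42 in HS and 6.70, 7.24, 5.87 and 7.49 in PF. PF replicates 1 and 3 were low, and the other PF arrays lay within the range of the HS arrays. Its log2 fold change was 0.65 ± 0.32 (SE, unadjusted p = 0.078 in limma) with all arrays and 0.34 without PF replicate 3. MRPS35 had log2 signals of 8.46, 8.66, 7.95 and 8.47 in HS and 8.26, 8.25, 7.26 and 8.12 in PF, a log2 fold change of 0.41 with all arrays and of 0.18 without PF replicate 3. MRPS26 had a log2 fold change of -0.11. MRPS22, whose mutations cause ovarian insufficiency in people, was among the steadiest genes, with log2 signals between 6.76 and 7.04 in HS and between 6.88 and 7.07 in PF.

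MRPS36 bears a ribosomal name, but later work in other species placed its protein in the alpha-ketoglutarate dehydrogenase complex of the citric acid cycle. Its log2 fold change was -0.02 (unadjusted p = 0.92 in limma), and PF replicate 3 was its lowest array.

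**Figure D2:**
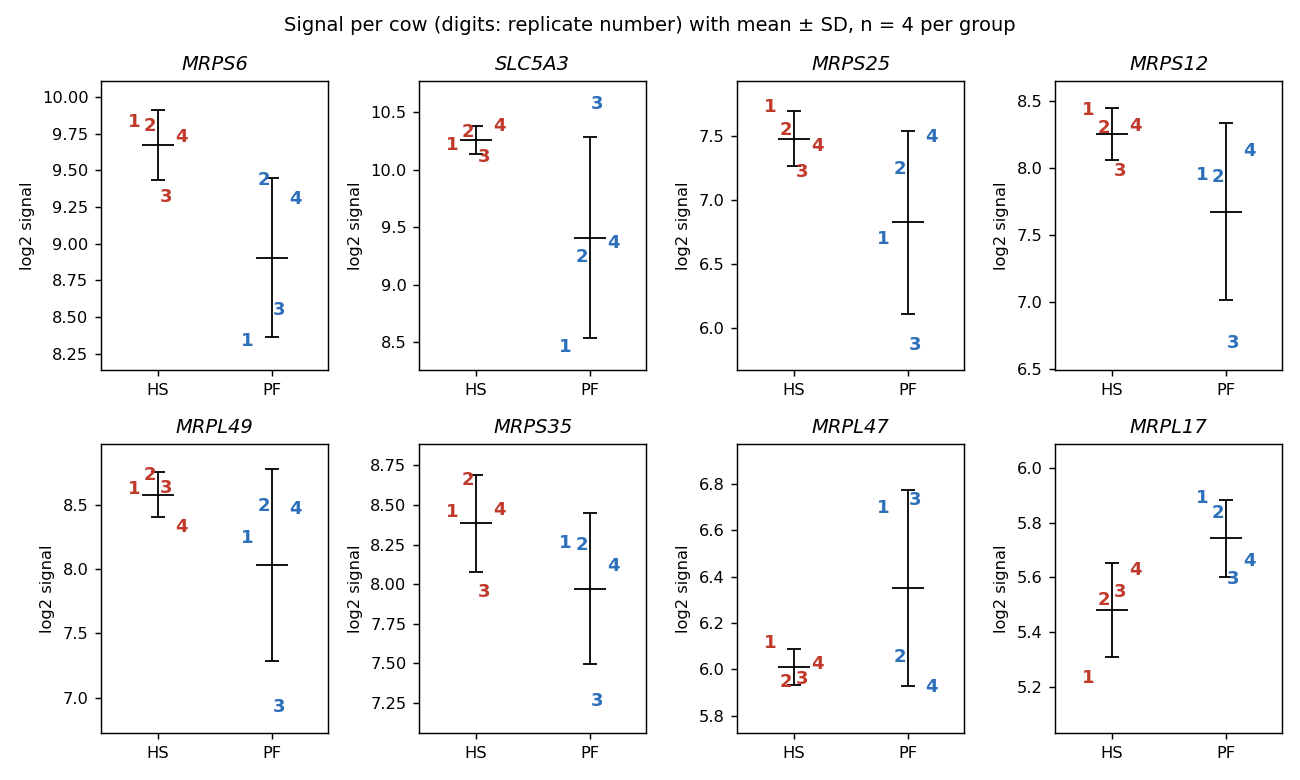
Log2 signal (y axis) of 7 mitochondrial ribosomal protein genes and of SLC5A3 in each cow, with HS in red on the left, PF in blue on the right, digits for replicate numbers and bars for mean ± SD. PF replicate 3 is the lowest point for MRPS25, MRPS12, MRPL49 and MRPS35 but the highest for SLC5A3 (10.57) and MRPL47 (6.73).

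In the large subunit, 29 proteins have a bacterial counterpart, and 21 of their genes had a higher and 8 a lower mean in HS, at a median of 0.08 for the log2 fold change. The lowest log2 fold changes of all 76 genes stood in this group. MRPL47, the relative of bacterial L29 near the exit of the peptide tunnel (chr1:88111912-88129274, plus strand, UMD3.1), had log2 signals of 6.11, 5.95, 5.96 and 6.02 in HS and 6.70, 6.05, 6.73 and 5.93 in PF. PF replicates 1 and 3 were high, and the other PF arrays lay at the level of HS. Its log2 fold change was -0.34 ± 0.20 (SE, unadjusted p = 0.12 in limma), and 0.02 when both high PF arrays were left out.

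MRPL17, the relative of bacterial L17, had log2 signals of 5.23, 5.51, 5.55 and 5.62 in HS and 5.89, 5.83, 5.59 and 5.66 in PF. The groups touched only in that HS replicate 4 exceeded PF replicate 3. MRPL17 had a log2 fold change of -0.26 ± 0.12 (SE), with an unadjusted p of 0.060 in limma and an exact permutation p of 0.057. MRPL17 is thus the gene with the lowest p among those with a lower mean in HS, and without PF replicate 3 its unadjusted p was 0.035 in limma at a log2 fold change of -0.31.

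MRPL1, whose bacterial relative forms the mobile stalk at the tRNA exit, had a log2 fold change of -0.23, and 0.02 without PF replicates 1 and 3. MRPL18, a protein of the central protuberance in bacteria, had a log2 fold change of -0.15 that rested on a single high array. PF replicate 2 read 8.28 for MRPL18, while the other PF arrays lay between 6.94 and 7.28 and the HS arrays between 7.07 and 7.54. Without PF replicate 2 the log2 fold change of MRPL18 was 0.13.

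The remaining 20 large subunit genes had a median log2 fold change of 0.02, with 11 of a higher and 9 of a lower mean in HS. They include MRPS30 and MRPS18A, which are proteins of the large subunit despite their names. MRPL49 (chr29:43992489-43996386, plus strand, UMD3.1) had log2 signals of 8.62, 8.73, 8.63 and 8.32 in HS and 8.24, 8.49, 6.93 and 8.46 in PF. PF replicates 2 and 4 lay within the range of HS and PF replicate 3 far below it, and the log2 fold change was 0.55 ± 0.33 (SE, unadjusted p = 0.14 in limma) with all arrays but 0.18 without PF replicate 3. MRPL51 (chr5:104273438-104276752, plus strand, UMD3.1) had the lowest p of these genes, 0.080 in limma, at a log2 fold change of 0.33. MRPL50, also tied to ovarian insufficiency in people, had a log2 fold change of -0.00 with a mean of 6.16 in both groups.

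The genes were also compared array by array. PF replicate 3 was the lowest of the 8 arrays for 57 of the 76 genes (75%), against 22.8% of all clusters and 34.1% of the 12651 clusters with a symbol and a mean of at least 5. The next in number was PF replicate 4 with 8 genes, and the HS arrays together were lowest for 7. PF replicate 3 lay below the mean of the other PF arrays for 67 genes (88.2%), against 49.5% of all clusters and 56.7% of the 12651. The median of this difference over the 76 genes was -0.47 on the log2 scale, against 0.00 over all clusters, and 10 genes (4.5% of all clusters) lay more than 1 log2 unit below. All these counts use the values from which the array was seen to stand apart, and they are descriptions without a test.

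MRPL14, the relative of bacterial L14 at the interface between the subunits (chr23:17644487-17647839, minus strand, UMD3.1), showed the widest gap, and it was chosen after its values were seen. Its log2 signal was 9.01, 8.88, 8.89 and 9.05 in HS and 9.13, 9.35, 7.38 and 8.77 in PF. The 4 HS arrays and 3 of the PF arrays lay within 1 log2 unit, while PF replicate 3 minus the mean of the other PF arrays was -1.70. MRPL14 had a log2 fold change of 0.30 with all arrays and -0.13 without PF replicate 3. At the other end stood MRPL47, for which PF replicate 3 minus the mean of the other PF arrays was 0.51.

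**Figure D3:**
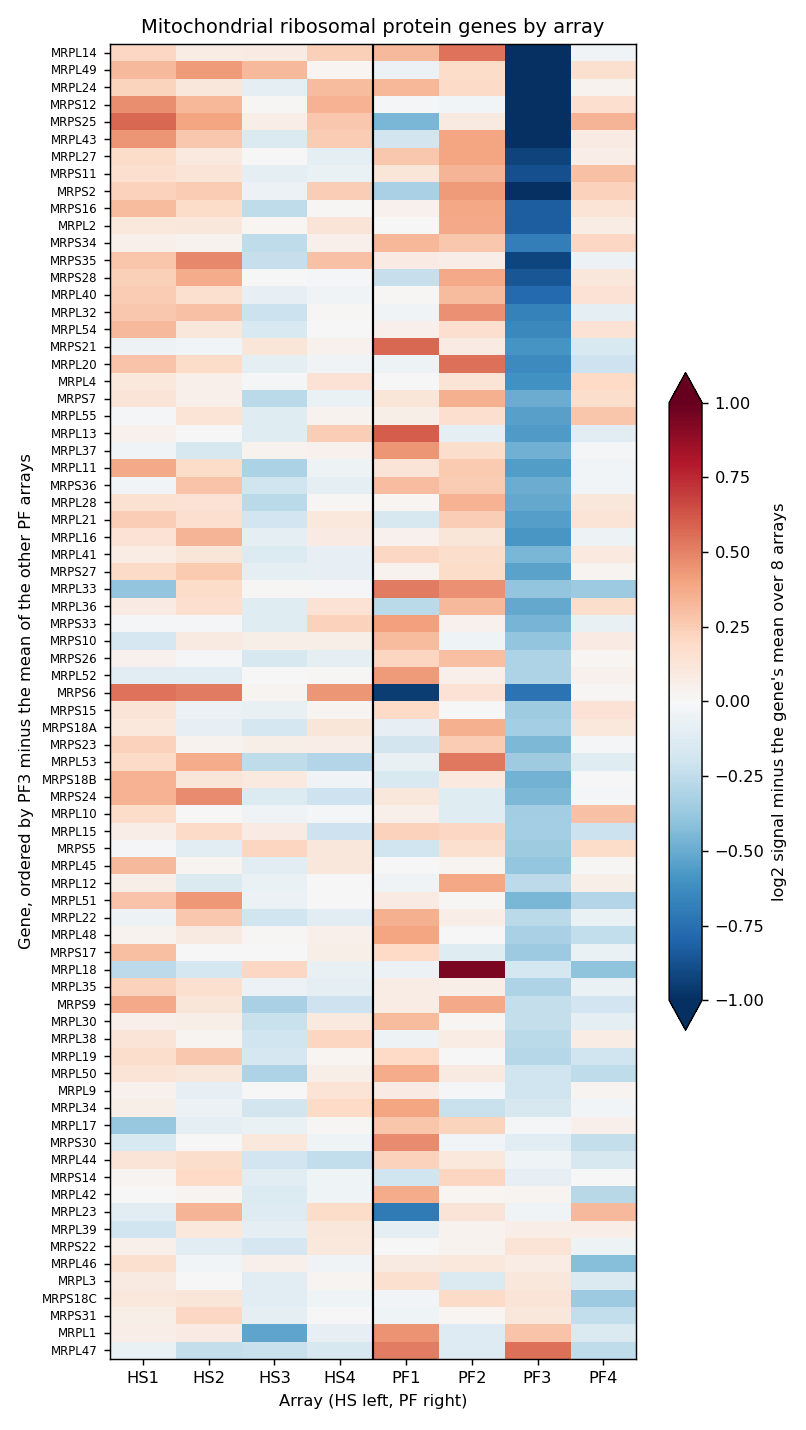
Log2 signal of the 76 genes (rows) on the 8 arrays (columns, HS left and PF right), each as the difference from the gene's own mean, with blue for lower and red for higher and colours capped at 1 log2 unit. Genes are ordered by PF replicate 3 minus the mean of the other PF arrays, and PF replicate 3 is the lowest array for 57 of them.

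The mean of the 76 genes was 7.18, 7.18, 6.96 and 7.09 on the HS arrays and 7.15, 7.22, 6.61 and 7.04 on the PF arrays. PF replicate 3 was lowest, and 3 PF arrays lay within the range of HS or just above it. Among the HS arrays replicate 3 was the lowest, with 20 of the 76 genes above their own mean over the 8 arrays, compared with 60, 57 and 44 in HS replicates 1, 2 and 4. PF replicates 1 and 2 were the highest array for 24 and 21 genes.

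The spread within groups differed too, much as it did over the array. The median SD of the 76 genes was 0.16 in HS and 0.32 in PF. It was 0.15 and 0.32 for the 12651 symbol-bearing clusters with a mean of at least 5. The SD was larger in PF for 69 genes (90.8%), against 75.5% of all clusters and 85.5% of those 12651. Without PF replicate 3 the SD was larger in PF for 47 of the 76 genes, against 62.7% of all clusters. Some genes hardly varied at all. The smallest SDs over the 8 arrays were those of MRPL9 (0.10), MRPS22 (0.11), MRPL39 (0.11) and MRPL3 (0.12), of which MRPL9, MRPL39 and MRPL3 were chosen after their values were seen.

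When PF replicate 3 was left out, MRPS6 kept its call with a log2 fold change of 0.65, and no other gene passed. The median log2 fold change of the 76 genes was then -0.04, against -0.01 over all clusters, and 3.39% of all clusters passed the thresholds. By role, the median was 0.018 for the small subunit genes with a bacterial counterpart, -0.010 for the other small subunit genes, -0.046 for the large subunit genes with a bacterial counterpart and -0.073 for the other large subunit genes. An unadjusted p under 0.05 was reached by 3 genes, MRPS6, MRPL17 and MRPS34, against 10.7% of all clusters. MRPS34 and MRPL17 were both lower in HS in this comparison, with log2 fold changes of -0.30 and -0.31, and MRPS34 was chosen after its values were seen.

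**Figure D4:**
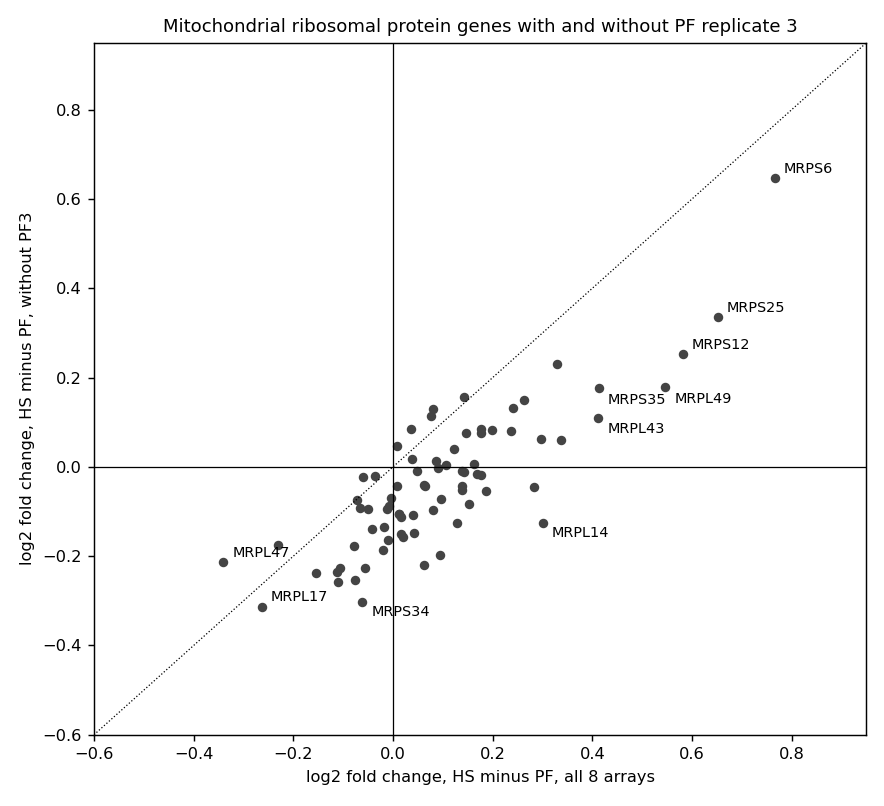
Log2 fold change (HS minus PF) of the 76 genes with all 8 arrays (x axis) and without PF replicate 3 (y axis), with a dotted line for equal values. Most points lie below the dotted line, 26 of 76 lie above zero on the y axis compared with 53 on the x axis, and MRPS6 stays highest at 0.65.

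Leukocyte markers moved with this array. All 12 leukocyte markers were highest in PF replicate 3, by a median of 1.59 on the log2 scale over the mean of the other PF arrays, and the mean of the list was 7.74 there, compared with 6.68, 5.64 and 6.09 in PF replicates 1, 2 and 4. The summed log2 signal of the 12 lay between 65.7 and 76.5 in HS and between 67.7 and 92.9 in PF, and 10 of the 12 had a mean of at least 5. The granulosa markers moved both ways in PF replicate 3. Compared with the mean of the other PF arrays, 4 of the 15 were more than 1 log2 unit lower (INHA at -2.99, LHCGR at -2.83, CYP11A1 at -2.22 and STAR at -1.72) and 5 more than 1 unit higher (GATM at 3.40, CYP19A1 at 2.42, INHBA at 2.00, AMHR2 at 1.31, and FOXL2). With these opposite shifts the mean of the list was 8.13 there, next to 8.13, 8.28 and 8.17 in PF replicates 1, 2 and 4. Among the 5 theca markers, all with a mean of at least 5, CYP17A1 and INSL3 were lower in PF replicate 3, at -2.07 and -2.59 from the other PF arrays. The summed log2 signal of the theca list was 37.7 to 42.6 in HS and 35.6 to 44.0 in PF. Of its markers 2 were higher and 3 lower in HS. Past both thresholds with a higher value in HS (1.58% of all clusters) were PTCH1 (0.95) and the granulosa marker FST (1.11). Past both with a lower value (0.627% of all clusters) were TAGLN of smooth muscle (-0.85) and 3 of the 12 leukocyte markers. These were CD3D (-1.09), CD14 (-0.87) and CORO1A (-0.81). The part of other cells in the low values of PF replicate 3 was not tested.

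Other nuclear genes of mitochondria were compared by lists. Of the 81 nuclear genes for subunits of oxidative phosphorylation, 65 (80.2%) were lowest in PF replicate 3, with a median difference of -0.74 from the other PF arrays and 24 genes more than 1 log2 unit below. Their median log2 fold change was 0.11 with all arrays and -0.059 without PF replicate 3, and no gene passed the thresholds. Without that array 5 of the 81 had an unadjusted p under 0.05 in limma, all lower in HS, against 0 with it. Over all clusters the share at such a p in either direction was 10.7% without that array and 7.2% with it. The 3 genes with the smallest p were COX4I2 (-0.25), UQCRC2 (-0.25) and UQCRFS1 (0.38), all at an unadjusted p above 0.05 in limma. The low values of PF replicate 3 were thus shared by most mitochondrial ribosomal protein genes and most nuclear subunit genes of oxidative phosphorylation.

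The proteins of the cytosolic ribosome, which share the task but not the compartment, did not show this. PF replicate 3 was lowest for 9 of 82 cytosolic ribosomal protein genes (11%), a count that the lower values of most of them in HS keep small. Compared with the mean of the other PF arrays, PF replicate 3 was lower for 45 of the 82 (54.9%, against 49.5% of all clusters). The median of this difference was -0.055. Of these 82 genes 77 had a lower mean in HS and 5 a higher one, with a median log2 fold change of -0.25 (-0.20 with array medians subtracted). An unadjusted p under 0.05 with a lower value in HS was found for 34 of them (2.81% of all clusters), and the groups did not overlap in 32 (4.64% of all clusters). RPSA, a protein of the small cytosolic subunit, had log2 signals of 8.59, 8.55, 8.95 and 8.81 in HS and 9.73, 9.23, 9.50 and 9.27 in PF. The groups were apart, and the log2 fold change was -0.71 ± 0.15 (SE, unadjusted p = 0.0012, adjusted p = 0.64 in limma). RPS7 (-0.45) and RPL17 (-0.47) likewise had no overlap between groups. RPSA and RPS12 (-0.59, chosen after its value was seen) were the 2 genes of this list past both thresholds (0.627% of all clusters passed with a lower value in HS). Without PF replicate 3, RPS12 stood at -0.43 and no longer passed. Array centring on these genes, by its construction, adds about 0.22 to the log2 fold change of every other gene.

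**Figure D5:**
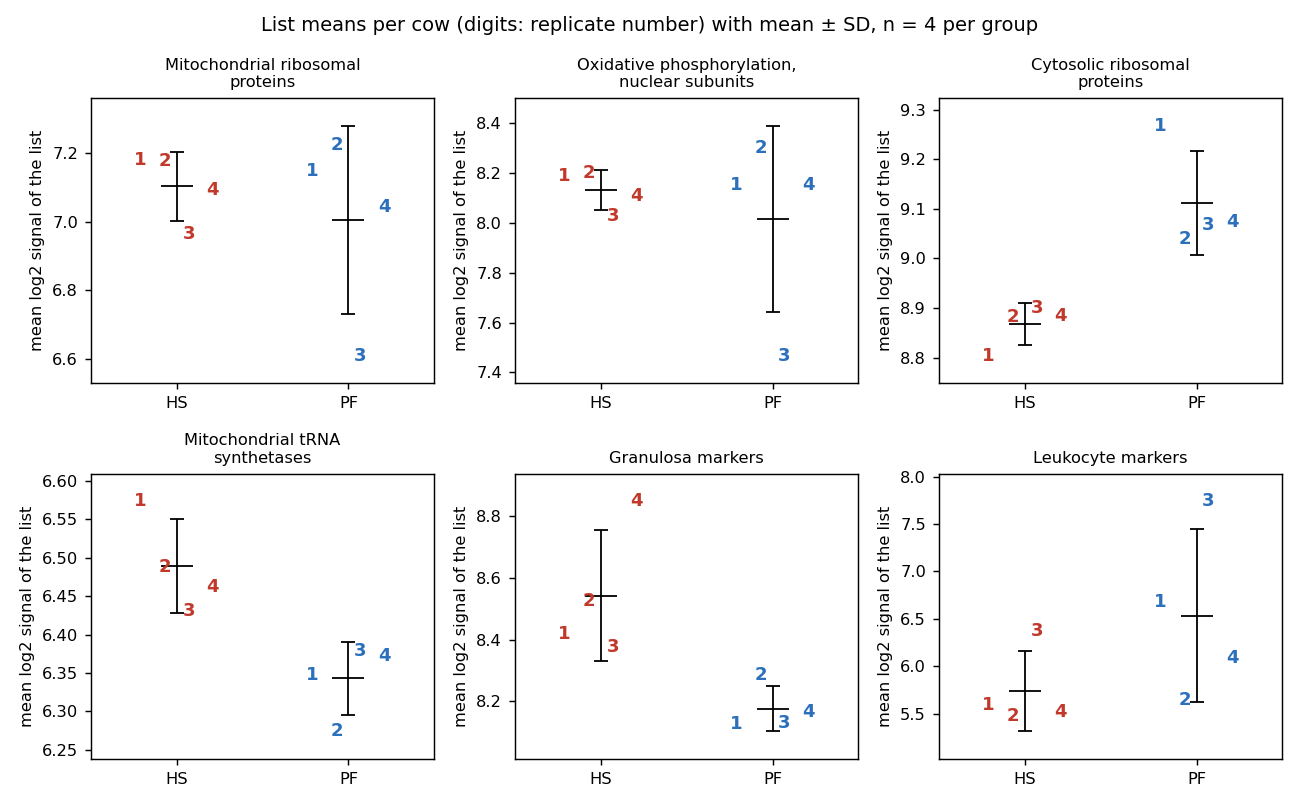
Mean log2 signal (y axis) of 6 gene lists in each cow, HS in red on the left and PF in blue on the right, with digits for replicate numbers and bars for mean ± SD. PF replicate 3 is lowest for the mitochondrial ribosomal proteins (6.61) and the oxidative phosphorylation subunits (7.47) and highest for the leukocyte markers (7.74), while the cytosolic ribosomal proteins lie lower in all 4 HS cows than in any PF cow.

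The 7 proteins of the mitochondrial ribosome that carry other symbols had a median log2 fold change of 0.12, and none had an unadjusted p under 0.05. Among them were DAP3, a GTP-binding protein of the small subunit (0.14), PTCD3 (-0.17) and AURKAIP1 (-0.22). The sign of this median turned without PF replicate 3, to -0.08.

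Of 16 mitochondrial translation factors, 11 had a higher mean in HS, and for 2, both higher in HS, the unadjusted p in limma was under 0.05 (4.39% of all clusters in that direction). MTRF1, a release factor that ends translation, had log2 signals of 6.59, 6.68, 6.08 and 6.38 in HS and 5.61, 6.11, 4.75 and 6.18 in PF. HS replicate 3 lay below PF replicates 2 and 4, and PF replicate 3 was far below the rest. MTRF1 passed both thresholds (1.58% of all clusters did so with a higher value in HS) with a log2 fold change of 0.77 ± 0.31 (SE, unadjusted p = 0.037, adjusted p = 0.68 in limma). Its call was lost without PF replicate 3, at a log2 fold change of 0.47, and also, on the p alone, without HS replicates 1, 2 or 4 or PF replicate 1, where the log2 fold change was 0.72, 0.69, 0.79 and 0.75.

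TRMU, which adds sulfur to mitochondrial tRNAs, had log2 signals of 6.87, 6.88, 6.49 and 6.55 in HS and 6.14, 6.46, 6.45 and 6.42 in PF. The groups did not overlap (4.64% of all clusters), though HS replicate 3 exceeded the highest PF array by a narrow margin. TRMU had a log2 fold change of 0.33 ± 0.13 (SE), below the 1.5-fold threshold. Its unadjusted p was 0.037 and its adjusted p 0.68 in limma. The exact permutation p was 0.029, the smallest possible. GFM2, which takes ribosomes apart after translation, had a log2 fold change of 0.27 (unadjusted p = 0.087 in limma). TUFM, the elongation factor that brings tRNAs to the ribosome, had a log2 fold change of 0.41, with a difference of -1.39 between PF replicate 3 and the mean of the other PF arrays, and without that array the log2 fold change was 0.060. TUFM was chosen after its values were seen.

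Of 24 genes for assembly of the mitochondrial ribosome and modification of its RNA, 18 had a higher mean in HS. The median log2 fold change of the list was 0.11. At an unadjusted p under 0.05 in limma stood 1 gene (4.17%, against 7.2% of all clusters). This was NGRN (0.40, unadjusted p = 0.041, or 0.32 with an unadjusted p of 0.092 without PF replicate 3), which is needed for the stability of the large ribosomal RNA. ERAL1, a chaperone of the small ribosomal RNA, had a log2 fold change of 0.49 (unadjusted p = 0.052 in limma), or 0.28 without PF replicate 3, and GTPBP5, a GTPase of large subunit assembly, one of 0.24 (unadjusted p = 0.085 in limma).

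Among the lists of other mitochondrial genes, the enzymes that charge mitochondrial tRNAs with amino acids had the largest share of genes higher in HS. Of 19 genes, 15 had a higher mean in HS, the median log2 fold change was 0.13, and 4 (21.1%) had an unadjusted p under 0.05, all higher in HS, against 4.39% of all clusters with such a p and a higher value in HS. Among these were GATC (0.31) and PET112 (0.31), subunits of the enzyme that completes the charging of the glutamine tRNA, and SARS2 (0.39, chosen after its value was seen), which charges the serine tRNAs. None passed the fold threshold. Without PF replicate 3 the count at such a p was 2 of 19, against 10.7% of all clusters in either direction. The mean of the list was 6.57, 6.49, 6.43 and 6.46 in HS and 6.35, 6.27, 6.38 and 6.37 in PF, so that every HS array lay above every PF array. PF replicate 3 was not low here, with a median difference of 0.01 from the other PF arrays, and without it the median log2 fold change was 0.19. SARS2 is the direct neighbour of MRPS12 in the gene table, and both had PF replicate 3 as their lowest array. That array was the lowest for 57 of the 76 genes, 5 of these 19 and 22.8% of all clusters.

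Genes that read and keep up mitochondrial DNA did not differ in 1 direction. Of 11 genes, 5 had a higher and 6 a lower mean in HS, and none had an unadjusted p under 0.05 in limma. The 3 with the smallest p were the RNA helicase SUPV3L1 (-0.23), the mitochondrial RNA polymerase POLRMT (0.11) and its initiation factor TFB2M (-0.13). Of 10 regulators of mitochondrial biogenesis, MYC was the 1 that passed the thresholds, with a lower value in HS (0.627% of all clusters did so). MYC, a transcription factor that raises ribosome production, had log2 signals of 5.37, 6.07, 7.32 and 5.36 in HS and 7.88, 6.99, 7.92 and 6.74 in PF. HS replicate 3 lay within the range of PF, and the other HS arrays lay below all PF arrays. The arrays highest for MYC, PF replicates 3 and 1 and HS replicate 3, were also highest for the mean of the leukocyte markers (7.74, 6.68 and 6.38). The part of other cells in the values of MYC was not tested. The log2 fold change was -1.35 ± 0.47 (SE, unadjusted p = 0.020, adjusted p = 0.68 in limma), and the call was lost without HS replicate 1, HS replicate 4 or PF replicate 1, each time at a log2 fold change of -1.13 or below. SIRT3, the main deacetylase of mitochondria, had a log2 fold change of 0.26 (unadjusted p = 0.045 in limma), and GABPA, a transcription factor with sites in many of these genes, one of -0.23 (unadjusted p = 0.17 in limma).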

How the data were processed

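Granulosa cell RNA of 4 HS and 4 PF cows was hybridized cow by cow. The authors used the robust multichip average (RMA) in Expression Console, that is, background correction, quantile normalization and summary to transcript clusters, and deposited log2 values of 26773 clusters, for which a different summary could give other values. Quantile normalization gives all arrays nearly the same distribution, so that only changes relative to the other transcripts are seen. HS minus PF was fitted to all clusters with limma 3.58.1 in R 4.3.3, with Benjamini-Hochberg adjustment, and weak signals were kept. Precision is limited by the small number of arrays. For single genes an exact permutation test over 70 assignments was added. The fit was tested on simulated data.

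The genes, lists and rules were chosen with earlier results of these data known. Named genes are those at an unadjusted p under 0.05, the 5 highest and 5 lowest fold changes, the smallest p per role group, MRPS22 and MRPL50, and up to 3 per list by the smallest p. Others are marked in the text, and 1 gene that the rule names is not reported here. Positions in UMD3.1 come from the table, and overlaps and neighbours of genes come from the RefSeq table of ARS-UCD2.0, in which all 76 symbols were found. Whether the replicate numbers pair HS with PF cows is not stated, and the main fit treats the cows as unpaired. The alternatives were other tests and averages, a signal filter, a filter for gene symbols, other scalings, a replicate block and leaving out arrays. The mean over the clusters of a symbol and a second deposited copy of the same values were also used.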

Additional observations from a re-analysis of the deposited data

Results flagged for a closer look

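In 106 groups of 4 arrays, the gap between an extreme array and its nearest neighbour was set against the group's range, and in 10 it exceeded Dixon's critical value for 4 values. For independent groups chance gives about 1 in 20. Most of these genes were named from the same values and the groups share arrays, so no excess can be read from the 10. Of the mitochondrial ribosomal protein genes named in the text, 3 had PF replicate 3 far below the other PF arrays. It read 6.69 for MRPS12 (next array 7.94), 6.93 for MRPL49 (next 8.24) and 7.26 for MRPS35 (next 8.12). Over all 76 genes, PF replicate 3 was low by this measure in 7. An extreme PF array of either direction was found for 10.5% of the 76 genes and for 7.22% of all clusters, and an extreme HS array for 7.89% of the 76 genes and 5.67% of all clusters.

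In HS, AURKAIP1 read 6.91 in replicate 3 (next array 7.02), GTPBP5 read 5.42 in replicate 1 (next 5.14), RPL17 read 10.04 in replicate 1 (next 10.26), and the mean of the biogenesis regulators was 6.79 in replicate 3 (next 6.68). In PF replicate 1, TRMU read 6.14 (next 6.42), RPS7 read 9.47 (next 9.30), and the mean of the cytosolic ribosomal proteins was 9.27 (next 9.07).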

How the results depend on the processing

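The count of clusters past the thresholds was 591, and 355 with the methods' t-test, 352 with biweight averages and that t-test together (called biweight here), 1680 with arrays centred on the cytosolic ribosomal protein genes and 333 to 1566 when 1 array was left out. That centring shifts the median of all clusters by 0.22, and the share of calls that are higher in HS was 71.6% as reported, 83.9% with array medians subtracted and 97.7% with that centring. It gave 5 mitochondrial ribosomal protein genes past the thresholds (MRPL49, MRPS12, MRPS25, MRPS35 and MRPS6), 16 at an unadjusted p under 0.05, a median of 0.29 for the 76 genes and of 0.24 for the other large subunit genes, and 10 calls in the companion lists, where 4 were reported. MRPS6 was called in 17 of 20 alternatives. Several of these could hardly change its call, as the symbol and signal filters and a second copy leave its signals as they are. Array weights gave 0 called genes, 2 at an unadjusted p under 0.05 and 2 list calls, biweight 2 list calls and 41 of 76 genes higher in HS, and an adjusted p of 0.05 gave 0 genes.

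With PF replicates 1 and 3 left out together, 0 genes were called, 31 were higher in HS, 28 had the larger SD in PF and 0 list genes were called. Leaving out 1 array gave 0 to 2 called genes (MRPS6 and MRPS25 without PF replicate 4), 1 to 3 genes at an unadjusted p under 0.05, 26 to 62 genes higher in HS and 1 to 9 list calls. The replicate number as a block gave 4 genes at an unadjusted p under 0.05 in place of 1. Deviations of arrays with the same number had correlations of -0.27, 0.21, 0.08 and 0.01. Such values cannot decide whether the numbers pair the cows.

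Small differences turned sign. MRPL18 was 0.061 with biweight, 0.00895 with array weights, 0.067 with the centring and between -0.31 and 0.13 without 1 array. MRPL50 was 0.13 with biweight, 0.12 with array weights, 0.053 with array medians subtracted, 0.22 with the centring, 0.079 without PF replicates 1 and 3, and between -0.089 and 0.12 without 1 array. MRPS36 was 0.038 with array medians subtracted, 0.20 with the centring and between -0.19 and 0.081 without 1 array. The centring also gave 0.11 for MRPS26, 0.16 for MRPS22, 0.0029 for AURKAIP1, 0.052 for PTCD3 and 0.092 for TFB2M, which was 0.080 with array weights. Without PF replicates 1 and 3, MRPL47 and MRPL1 were 0.022, POLRMT -0.013, TFB2M 0.089 and GABPA 0.019. The causes were not tested.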

Other observations

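Of the 76 genes, 27 have a position in UMD3.1 in the table, and for 2 of these, MRPL33 and MRPS17, the cluster lies on another chromosome than the gene of that symbol in the ARS-UCD2.0 table. The MRPL33 cluster spans 198 bases at chr13:2891529-2891726 and the MRPS17 cluster 393 bases at chr10:3586114-3586506. Values of both genes are therefore uncertain in what they measure. MRPS17 has another cluster with a RefSeq transcript of that gene, and its log2 fold change was -0.15, against 0.18 for the cluster used. Both MRPS17 clusters had mean log2 signals below 5, as had MRPL15 and MRPS24. The pair of MRPL23 clusters gave log2 fold changes of 0.14 for the cluster used and -0.04 for the other, neither with an unadjusted p under 0.05 in limma. Another gene overlaps 22 of the 76 in the ARS-UCD2.0 table.

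Besides MRPS22 and MRPL50, the synthetase genes LARS2 and HARS2 are tied to ovarian insufficiency in people. LARS2 had a log2 fold change of 0.16 and HARS2 one of 0.30 (unadjusted p = 0.063 in limma). Both were chosen after their values were seen.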
